A study of Mus musculus with 3 samples.

Results

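The genes described here are named for proteins of the mitochondrial ribosome. Membership rests on the symbol alone, and the place of each product in the ribosome was not checked. They were taken from the deposited expression table as all symbols made of Mrpl or Mrps and a digit. The rule gave 76 of 23298 symbols, 47 with the prefix Mrpl for the large subunit and 29 with the prefix Mrps for the small subunit. The cells were C2C12, a mouse myoblast line, which per the series title carry a human NOTCH1 that lacks its extracellular domain (hN1ΔECD). Such a receptor is released from the membrane by gamma-secretase, the protease that DAPT inhibits. Polyadenylated RNA was profiled in 3 libraries, 1 for each group. The groups share the cell line, the transgene and the medium, and the same note on culture in 10 uM DAPT is given for each. The control carries the label of no treatment, and the other libraries were made 1 h and 6 h after the DAPT had been washed out. It is not stated if the control remained in DAPT, so a difference from it cannot be assigned to the washout alone.

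The mitochondrial ribosome translates the few messenger RNAs made from mitochondrial DNA, which encode membrane subunits of the respiratory chain and of ATP synthase. Its RNAs come from the mitochondrial genome, whereas its proteins are encoded in the nucleus, made in the cytosol and imported. The small subunit reads the messenger RNA and the large subunit joins the amino acids, and each holds proteins with bacterial relatives beside proteins found only in mitochondria.

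Levels are in FPKM, fragments per kilobase of transcript scaled to the library's mapped fragments, and are listed in the order control, 1 h, 6 h. No test between groups can be made with single libraries, so the differences below are without replicates. A ratio is followed in parentheses by an interval built from the deposited 95% bounds of both libraries, which covers error inside a library and not the spread between cultures. In bulk RNA, fewer cells that express a gene and less RNA per cell cannot be told apart. Read as Poisson error, the bounds corresponded to about 13300000, 11800000 and 11900000 fragments in the 3 libraries, and to between 111 and 1448 fragments for each of the 76 genes in the control. Hes1, a repressor gene directly controlled by Notch, stood at 22.5, 254 and 44.8 FPKM. The muscle intermediate filament gene Des stood at 62.2, 73.3 and 66.3 FPKM, and the myoblast regulator Myod1 at 0.189, 0.295 and 0 FPKM. Of 8 myoblast markers, these among them, 6 reached a mean of 1 FPKM. All 6 lay above the control at 1 h, beside 4747 of 10464 genes, with a median difference in log2(FPKM + 1) of 0.28. At 6 h 4 lay above and 2 below, from -0.38 to 1.63. Of 6 markers of differentiated muscle 2 reached a mean of 1 FPKM. Of 8 markers of other cell types 0 reached a mean of 1 FPKM, and Ptprc, Cdh5 and Epcam were listed at 0 throughout. An exact 0 in these files can be a failed estimate and does not show absence: the cytosolic ribosomal protein gene Rpl30, which cells in general express, is listed at 0 in all 3 libraries.

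All 76 genes reached a mean of 1 FPKM, the filter for the comparisons. In the control they ran from 4.20 to 241 FPKM with quartiles of 20.2 and 59.4 FPKM. Their medians were 37.4, 36.3 and 35.8 FPKM, beside 13.7, 13.8 and 13.2 FPKM over the 10464 genes that passed the filter. In the 3 libraries 68, 67 and 68 of the 76 lay above the median of all genes. Large subunit genes had medians of 36.8, 38.4 and 35.9 FPKM and small subunit genes of 39.6, 34.8 and 34.6 FPKM. Summed, the family held 0.682, 0.677 and 0.663 percent of all FPKM. Genes for cytosolic ribosomal proteins were far more abundant, with medians of 1152, 1075 and 1179.5 FPKM, and nuclear genes for the respiratory chain and ATP synthase had medians of 145, 138 and 143 FPKM.

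Within the control the FPKM of the highest of these genes was 57.5 times that of the lowest. Mrps21, a small subunit protein with a bacterial relative, stood at 241, 225 and 207 FPKM. Mrpl33, a small protein of the large subunit, stood at 219, 206 and 204 FPKM. Mrpl52, which has no bacterial relative, stood at 198, 200.3 and 216 FPKM. These were the 3 highest means. For Mrps21 the ratio at 6 h was 0.858 (0.767 to 0.960), while for Mrpl52 the intervals included 1 at both times. Mrpl12, which forms the flexible stalk that recruits translation factors, stood at 157, 142 and 163 FPKM. Mrpl42, another protein specific to mitochondria, stood at 143, 142 and 137 FPKM. Mrps6 completed the highest 6 and is described with the differences. The lowest gene was Mrpl35 at 4.20, 3.53 and 3.92 FPKM, followed by Mrpl17 at 5.86, 6.16 and 6.04 FPKM. Mrpl19, Mrpl1, Mrpl11 and Mrps25 came next, with mean levels of 7.54, 7.86, 8.25 and 9.28 FPKM.

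**Figure D1:**
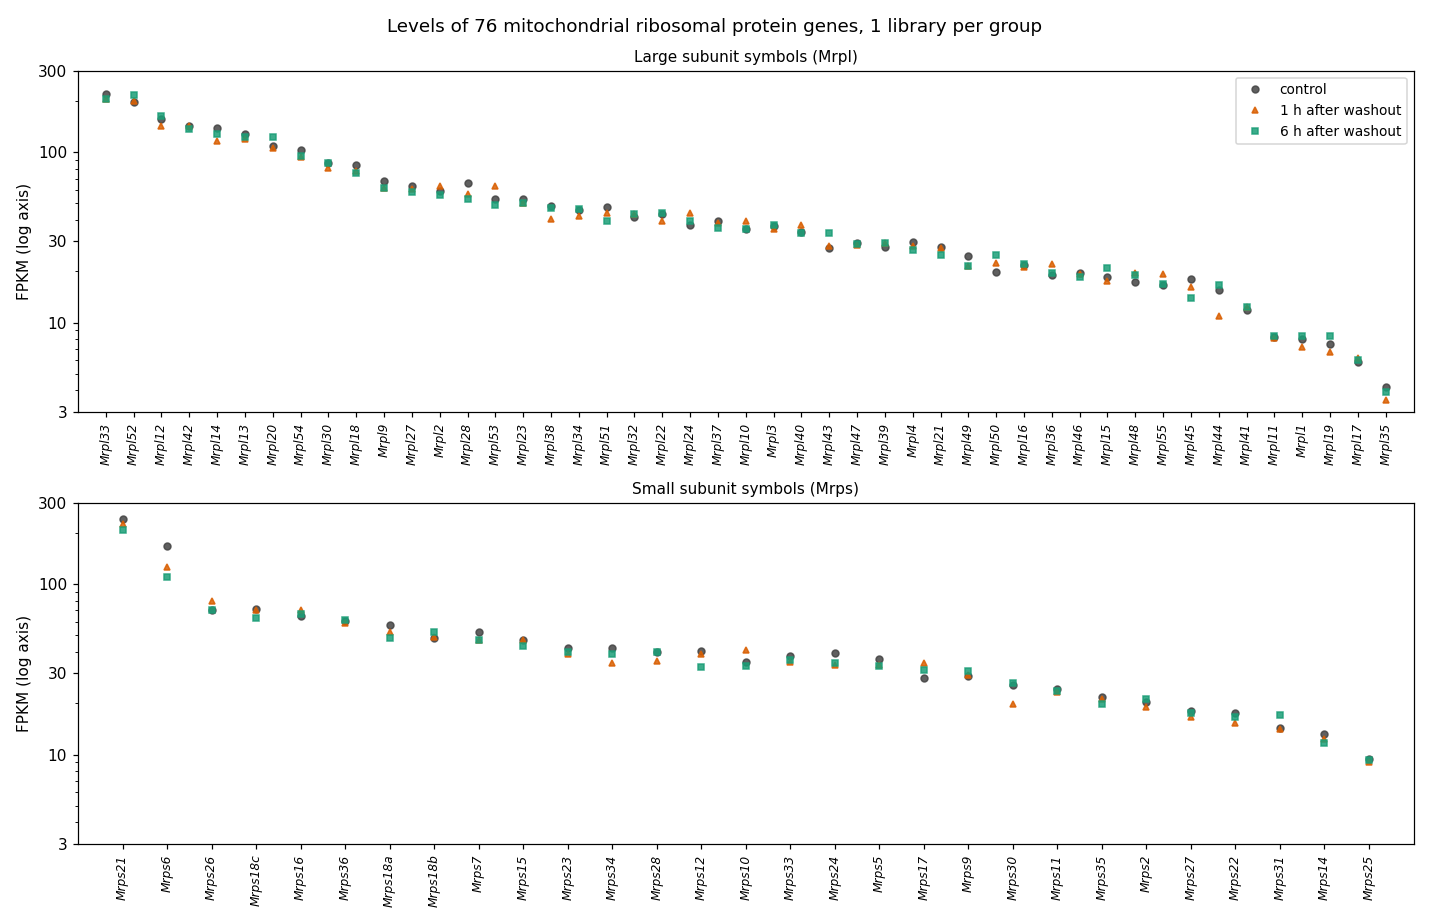
FPKM on a log axis for the 47 large subunit symbols (upper panel) and the 29 small subunit symbols (lower panel), ordered by mean, with 1 point per library and no error bars. The 3 points of most genes lie close together while levels span from 3.53 to 241 FPKM, and Mrps6 shows a wide gap, from 167 to 110.3 FPKM.

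The order of levels rests in part on how the deposited values relate to their bounds. FPKM exceeded its own upper bound for 53, 54 and 55 of the 76 genes in the 3 libraries, and fell short of its lower bound for 0. Over all genes that passed the filter, 21.3, 19.6 and 19.7 percent exceeded theirs. FPKM was 1.96 times the middle of the bounds for Mrps21, 1.93 times for Mrpl52 and 1.74 times for Mrpl33. The excess was larger for shorter transcripts, with a median in the control of 1.48 over 13 genes under 700 nt and 1.22 over 17 genes from 700 to 1000 nt. It was 1.15 over 19 genes from 1000 to 1500 nt and 1.09 over the 27 longer ones. For 15 genes, Mrps6, Mrpl53, Mrpl24 and Mrps10 among them, FPKM divided by the middle lay within 0.005 of 1 in every library. Of 9 genes whose locus overlaps another gene 8 were in this set, and of the other 67 genes 7 were. Levels of different genes are therefore not on 1 scale. Ranked by the middle of the bounds Mrps6 came first with a mean of 135, ahead of Mrpl12 at 123 and Mrpl33 at 121, with Mrps21 at 115. For any gene the excess differed between libraries by at most 1.03 times, so ratios between libraries are little touched. Over the 76 genes Spearman's rho of transcript length was -0.54 with the excess and -0.57 with mean FPKM, a description only, since length enters both.

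**Figure D2:**
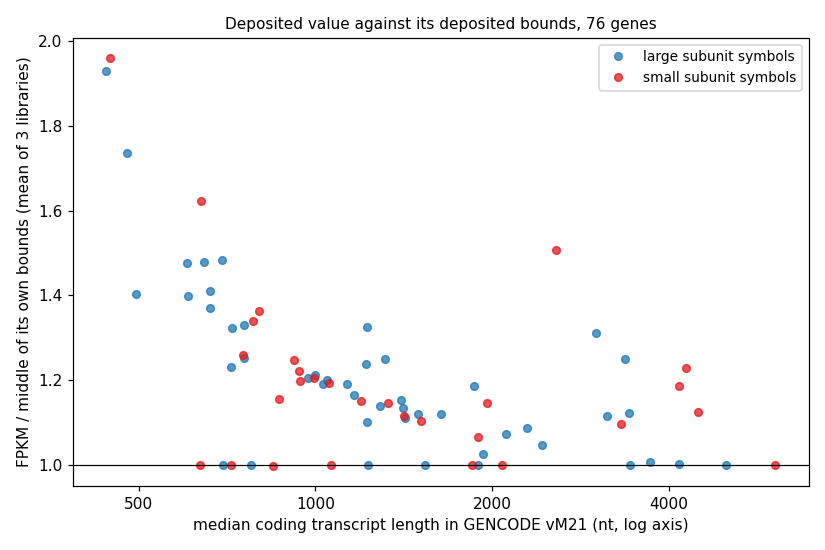
The deposited FPKM divided by the middle of its deposited bounds (mean of 3 libraries) against transcript length in nt on a log axis, with 1 point per gene. Most genes lie on a falling curve that starts near 1.96, and 15 genes lie on the line at 1.

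The first comparison concerns the family soon after DAPT removal. At 1 h the genes were close to the control: 0 of 76 were 25% or more above it and 3 were 20% or more below it on the log2(FPKM + 1) scale. Over the 10464 genes, 9.35% and 12% passed these limits, and over the 8271 genes within the family's range of means 8.67% and 11.0% did. The median log2 difference of the family was -0.058, beside -0.025 over all genes. In the family 54 of 76 lay below the control, beside 5700 of all 10464 genes. With libraries rescaled to a median ratio of 1 the family median was -0.031, with 28 above and 48 below. Of all 10464 genes 5210 then lay above. No gene passed 1.5-fold, a limit passed upward by 3.04% and downward by 3.50% of all genes, or 2-fold, passed by 1.31% and 0.831%. Bounds of the libraries were apart for 1 gene above and 7 genes below the control, beside 14.9% and 20.1% of all genes. The interval of the ratio excluded 1 for 7 genes above and 11 below, beside 21.1% and 27.8%.

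The 3 genes past the limit were Mrpl44, Mrps6 and Mrps30. Mrpl44, a large subunit protein with a fold like that of ribonuclease III, stood at 15.5, 10.9 and 16.6 FPKM. The 1 h library was the low one, with the other two near each other. The ratio to the control was 0.707 (0.587 to 0.851) at 1 h and 1.07 (0.908 to 1.27) at 6 h. Mrps30, which despite its name sits in the large subunit in structures of the mammalian particle, stood at 25.8, 19.8 and 26.3 FPKM. Again 1 h was the single low library, with a ratio of 0.770 (0.667 to 0.889). Mrps6, a relative of bacterial S6 on the platform of the small subunit, had a ratio of 0.755 (0.697 to 0.817).

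Mrps34, a small subunit protein specific to mitochondria, stood at 42.1, 34.3 and 38.7 FPKM and had a ratio of 0.815 (0.705 to 0.942) at 1 h. Mrpl14, which lies at the interface of the subunits, stood at 139, 116 and 128 FPKM, with a ratio of 0.833 (0.745 to 0.932). Mrpl38 had a ratio of 0.835 (0.752 to 0.927) and Mrpl12 of 0.901 (0.836 to 0.970). In these 4 genes the bounds at 1 h lay wholly below those of the control. Mrps17, a relative of bacterial S17, stood at 28.0, 34.7 and 31.3 FPKM. Its ratio of 1.24 (1.07 to 1.43) came with bounds wholly above those of the control, which no other of the 76 genes showed at 1 h. Mrpl53 had a ratio of 1.20 (1.05 to 1.36), Mrpl24 of 1.18 (1.04 to 1.33) and Mrps10 of 1.17 (1.04 to 1.32), with overlapping bounds. For Mrpl55 the ratio was 1.16 (0.908 to 1.49), an interval that includes 1.

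**Figure D3:**
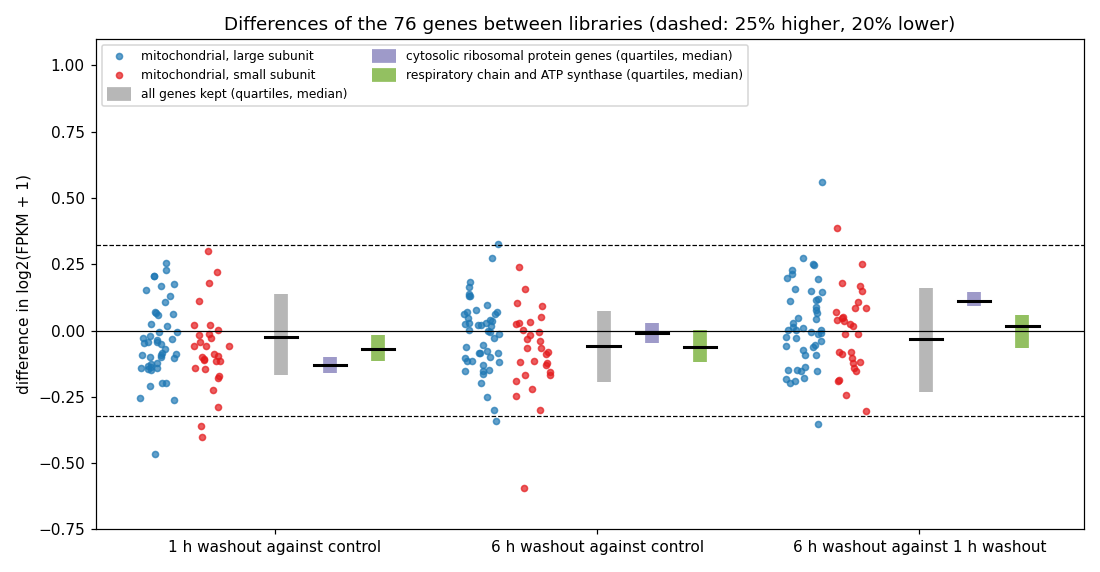
Differences in log2(FPKM + 1) in the 3 comparisons, with 1 point per mitochondrial ribosomal protein gene, and bars between the quartiles with a black line at the median for the reference sets. Dashed lines mark 25% higher and 20% lower; nearly all points lie between them, and cytosolic ribosomal protein genes form a narrow band with a median of -0.13 at 1 h.

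At 6 h 1 gene was 25% or more above the control and 2 were 20% or more below it, beside 6.09% and 11.0% of all genes. The family median was -0.029, beside -0.057 over all genes, with 32 genes above and 44 below the control. Over all 10464 genes 3972 lay above and 6474 below, so the family's counts are near that background. The family's direction turned with scaling: at a median ratio of 1 its median was 0.032. Then 42 of its 76 genes lay above, beside 5217 of all 10464. Both times are set against the same control library. Past 1.5-fold there were 0 genes above and 1 below, beside 2.34% and 2.77% of all genes. Past 2-fold there were 0, beside 1.08% and 0.631%. Bounds were apart for 1 gene above and 4 below, beside 11.2% and 19.2%. Intervals excluded 1 for 5 above and 11 below, beside 15.5% and 28.9%.

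Mrps6 differed most. It stood at 167, 126 and 110.3 FPKM, highest in the control and lowest at 6 h, with bounds apart in all 3 comparisons. Its ratio was 0.661 (0.609 to 0.718) at 6 h against the control and 0.876 (0.802 to 0.956) at 6 h against 1 h. No other of the 76 genes passed 1.5-fold in any comparison on the log2(FPKM + 1) scale. In the files Mrps6 spans chromosome 16 from 92058581 to 92112472 (mm9), and this locus overlaps that of Slc5a3, which encodes a sodium-coupled inositol transporter. Slc5a3 stood at 5.70, 4.76 and 2.84 FPKM, also highest in the control and lowest at 6 h. How far fragments of one gene were counted for the other was not tested.

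Mrpl45, which ties the large subunit to the inner membrane at the exit of the peptide tunnel, stood at 18.0, 16.2 and 14.0 FPKM. Its ratio at 6 h was 0.777 (0.681 to 0.888). Mrpl28, a relative of bacterial L28, stood at 65.7, 56.7 and 53.1 FPKM and had a ratio of 0.809 (0.726 to 0.901). Like Mrps6, these genes were highest in the control and lowest at 6 h, as were Mrps12 and Mrpl51. Mrps12, a relative of the bacterial decoding protein S12, stood at 40.5, 38.9 and 32.7 FPKM, with a ratio of 0.807 (0.676 to 0.964). For Mrpl51 the ratio was 0.837 (0.757 to 0.926). In the other direction Mrpl50, a large subunit protein specific to mitochondria, stood at 19.7, 22.4 and 25.0 FPKM. Its ratio of 1.27 (1.13 to 1.42) came with bounds apart from those of the control. Mrpl43 stood at 27.5, 28.0 and 33.4 FPKM, with a ratio of 1.22 (1.05 to 1.40). Mrps31, Mrpl15 and Mrpl20 had ratios of 1.19, 1.14 and 1.12, and like Mrpl43 had bounds that overlapped those of the control.

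**Figure D4:**
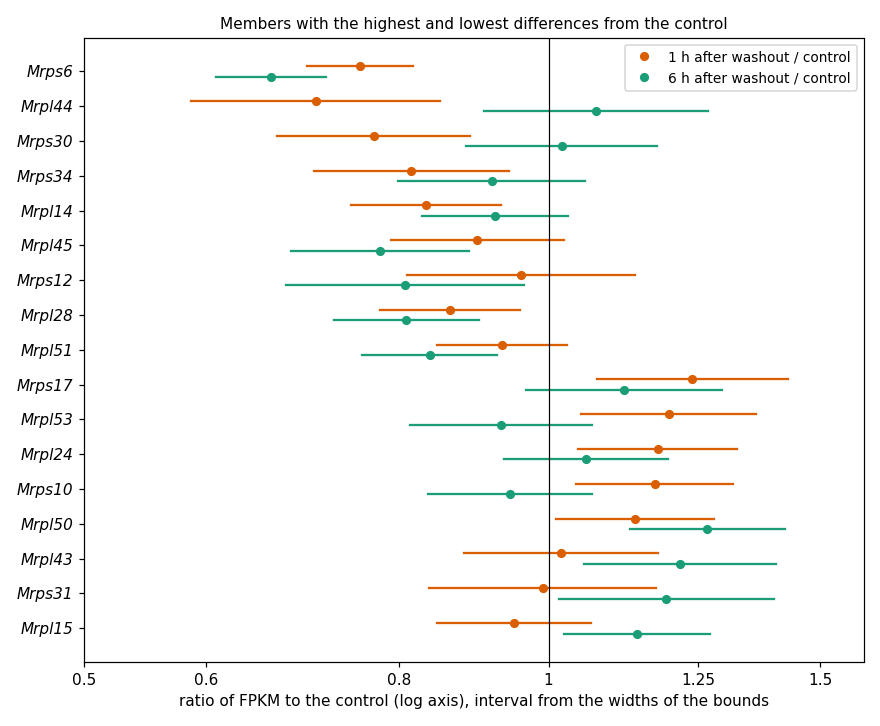
Ratio of FPKM to the control on a log axis for 17 genes, at 1 h and at 6 h, with lines for the interval from the widths of the bounds. Mrps6 lies below 1 at both times, Mrpl44 and Mrps30 lie below 1 at 1 h and near 1 at 6 h, and Mrpl50 lies above 1 at both.

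Between the washout times 2 genes were 25% or more above and 1 was 20% or more below its 1 h level at 6 h, beside 12.5% and 17.2% of all genes. The family median was 0.0027, beside -0.03. The genes above were Mrpl44, with a ratio of 1.52 (1.26 to 1.83), and Mrps30, with 1.32 (1.15 to 1.53). The gene below was Mrpl53, a mitochondria-specific protein of the large subunit, at 52.8, 63.2 and 49.2 FPKM and a ratio of 0.779 (0.680 to 0.892). Mrps10, in the head of the small subunit, came close with a ratio of 0.806 (0.714 to 0.910). Mrpl19 and Mrpl15 had ratios of 1.24 and 1.20 with bounds apart, and Mrpl2 had a ratio of 0.874 with overlapping bounds. Past 1.5-fold on the log2(FPKM + 1) scale there were 0 genes, beside 4.69% and 5.57% of all genes, and past 2-fold 0, beside 1.47% and 1.70%. The FPKM ratio of Mrpl44, without the added 1, lies just over 1.5. Bounds were apart for 6 genes above and 3 below, beside 19.7% and 23.0%. Intervals excluded 1 for 9 above and 6 below, beside 25.6% and 30.9%.

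Over the 3 libraries the highest FPKM of a gene was 1.12 times its lowest in the median, and between 1.03 and 1.52 times. For 70 of the 76 genes, or 92.1%, this span was under 25%. Of the 8271 genes within the family's range of means the span was computed for 8208. Among these the median was 1.21 times, and 57.5% stayed under 25%. Those genes were not matched to the family on level within that range. Sets near in function were tighter by the distance between quartiles of the log2 differences from the control. At 1 h it was 0.155 for the family, 0.057 for cytosolic ribosomal protein genes and 0.097 for respiratory genes. At 6 h it was 0.160, 0.076 and 0.121. Both sets stood at higher levels, with control medians of 1152 and 145 FPKM beside 37.4 FPKM, and were not matched to the family on level. By the standard deviation over genes the order differed. At 1 h it was 0.148, 1.21 and 0.122 in the same order, and at 6 h 0.146, 0.850 and 0.165. The cytosolic values include genes listed at 0 in a library. The order of the libraries varied: 21 genes were lowest at 6 h and highest in the control, 17 lowest at 1 h and highest in the control, and 16 lowest at 1 h and highest at 6 h. The control was lowest for 7 genes that were highest at 6 h and 9 that were highest at 1 h, and 6 genes were lowest at 6 h and highest at 1 h. These orders were not counted over all genes. Of all 10464 genes 5700 lay below the control at 1 h and 6474 at 6 h, so the orders cannot be read as a trait of the family.

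By prefix, with Mrps30 and Mrps18a left among the small subunit symbols, large subunit genes had median log2 differences from the control of -0.048 at 1 h and -0.0026 at 6 h, and small subunit genes of -0.089 and -0.066. The 46 genes with a bacterial relative had medians of -0.078 and -0.047, and the 29 without one -0.038 and -0.028, with Mrps28 in neither set. In the stalk, Mrpl10, which anchors Mrpl12, stood at 35.5, 39.6 and 35.6 FPKM, and Mrpl11 at its base stood at 8.25, 8.11 and 8.39 FPKM. Of these 3 stalk genes 0 passed the limits of 25% up or 20% down in any comparison. Over all genes the shares past these limits were 9.35% above and 12% below at 1 h, 6.09% and 11.0% at 6 h and 12.5% and 17.2% between the times, so counts of 0 among so few genes are near that background. Of 5 genes around the exit of the peptide tunnel 1, Mrpl44, passed the lower limit at 1 h and 1, Mrpl45, at 6 h, and Mrpl44 passed the upper limit between the times. The other genes there were Mrpl22, Mrpl23 and Mrpl24. Mrpl22 stood at 43.3, 39.6 and 44.2 FPKM, Mrpl23 at 53.3, 50.2 and 50.3 FPKM and Mrpl24 at 37.1, 43.7 and 39.2 FPKM. Of 5 decoding and head proteins 0 passed the limits in any comparison, also near the background, with Mrps7 at 52.4, 47.3 and 46.9 FPKM, Mrps9 at 28.8, 29.2 and 30.7 FPKM and Mrps14 at 13.3, 12.4 and 11.7 FPKM. The paralogues Mrps18a, Mrps18b and Mrps18c, all related to bacterial S18, had mean levels of 52.8, 49.8 and 68.4 FPKM. Mrps18a, whose protein sits in the large subunit in mammalian structures, had a ratio of 0.840 (0.735 to 0.959) at 6 h, while the intervals of Mrps18b and Mrps18c included 1 at both times.

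Among 12 genes that are mutated in inherited mitochondrial disease in humans, 11 lay below the control at 1 h, with a median of -0.13, and 6 at 6 h, with a median of -0.008. In the whole family 54 and 44 of 76 lay below, and over all genes 5700 and 6474 of 10464. Bounds were apart at 1 h for 3 of the 12, Mrpl44, Mrps34 and Mrpl12, each lower, and at 6 h for 0. Over all genes 20.1% had bounds apart and lower at 1 h, so the count of 3 is near the background. Mrps22 stood at 17.5, 15.4 and 16.7 FPKM, Mrps28 at 39.9, 35.1 and 40.0 FPKM and Mrps2 at 20.4, 19.0 and 21.2 FPKM. Mrpl3, Mrps16, Mrps23 and Mrps25 had ratios at 1 h of 0.965, 1.08, 0.923 and 0.958, each with an interval that includes 1.

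The 76 loci lie on 17 chromosomes, with 10 on chromosome 11 and 8 on chromosome 17. Of the genes 26 have a neighbour on the opposite strand whose start faces away, with at most 1000 bases between the loci or with overlapping ends, which makes 25 pairs. Both partners belong to the family in the pair Mrpl46 and Mrps11, whose loci lie 41 bases apart on chromosome 7. Mrpl46 stood at 19.6, 19.2 and 18.4 FPKM and Mrps11 at 24.2, 23.2 and 23.5 FPKM. In 20 pairs the partner passed the filter. There 7 partners and 0 of the mitochondrial ribosomal protein genes passed the limits at 1 h, and 3 and 1 at 6 h. The shares of all genes past the limits were 9.35% above and 12% below at 1 h, and 6.09% and 11.0% at 6 h. Zfp189, a zinc finger gene beside Mrpl50, stood at 3.22, 0.777 and 2.74 FPKM, with a log2 difference at 1 h of -1.25, while that of Mrpl50 was 0.18.

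Promoters are shown for the 3 genes past the limit at 1 h, for the 2 with the highest means, for Mrpl22 and Mrpl53, which hold several motifs, and for Mrps11 of the paired loci. The sequences are from RefSeq (GRCm38.p6), 5′ to 3′ on the gene's strand, from 120 bases before the start to 30 after it, with a shorter window for Mrps11. Capitals mark matches on either strand to a core of the NRF1 motif (GCGCATG), an ETS motif (CCGGAAG), a core of the YY1 motif (ATGGCGG), an SP1 motif (GGGCGG) or an E-box (CACGTG).
Mrps6, chr16:92058216-92058365, plus strand: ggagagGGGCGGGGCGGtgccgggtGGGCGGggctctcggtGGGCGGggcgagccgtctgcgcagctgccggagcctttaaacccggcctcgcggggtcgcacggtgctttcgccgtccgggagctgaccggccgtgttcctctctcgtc
Mrpl44, chr1:79775898-79776047, plus strand: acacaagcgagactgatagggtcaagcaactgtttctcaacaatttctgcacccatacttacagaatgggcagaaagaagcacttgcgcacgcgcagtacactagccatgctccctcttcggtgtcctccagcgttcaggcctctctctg
Mrps30, chr13:118387223-118387372, minus strand: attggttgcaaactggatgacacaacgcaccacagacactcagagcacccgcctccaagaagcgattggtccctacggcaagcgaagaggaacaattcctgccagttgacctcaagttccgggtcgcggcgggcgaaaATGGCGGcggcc
Mrps21, chr3:95871485-95871634, minus strand: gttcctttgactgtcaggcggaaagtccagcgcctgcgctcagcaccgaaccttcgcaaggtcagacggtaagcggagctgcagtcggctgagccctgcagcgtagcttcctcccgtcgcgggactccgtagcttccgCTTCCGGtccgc
Mrpl33, chr5:31613831-31613980, plus strand: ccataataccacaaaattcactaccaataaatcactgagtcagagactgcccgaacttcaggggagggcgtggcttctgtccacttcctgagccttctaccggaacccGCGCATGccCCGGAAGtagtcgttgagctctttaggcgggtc
Mrpl22, chr11:58171544-58171693, plus strand: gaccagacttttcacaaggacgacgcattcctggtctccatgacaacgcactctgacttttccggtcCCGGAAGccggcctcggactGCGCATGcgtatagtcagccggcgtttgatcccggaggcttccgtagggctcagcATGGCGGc
Mrpl53, chr6:83108988-83109137, plus strand: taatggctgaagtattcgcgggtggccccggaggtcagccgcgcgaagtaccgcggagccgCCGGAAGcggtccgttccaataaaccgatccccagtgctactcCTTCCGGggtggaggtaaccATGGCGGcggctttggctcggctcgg
Mrps11, chr7:78783060-78783160, plus strand: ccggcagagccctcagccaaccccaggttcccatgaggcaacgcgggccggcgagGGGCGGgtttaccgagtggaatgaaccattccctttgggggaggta

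The Mrps6 window holds 4 SP1 matches, and the Mrpl44 window holds none of the 5 motifs. Mrps30 has a YY1 core and Mrps21 an ETS match just after the start. Mrpl33 holds an NRF1 core and an ETS match, and Mrpl22 holds 1 match each to NRF1, ETS and YY1. Mrpl53 holds 2 ETS matches and a YY1 core. Mrps11 holds an SP1 match in its window of 101 bases, and a YY1 core elsewhere in its promoter of 300 bases. RefSeq promoters of 300 bases were at hand for 67 of the 76 genes. An ETS match was present in 34.3%, 9.12% and 20.3% of these 67, of all 27025 promoters and of the 7754 promoters of genes that passed the filter. For the YY1 core the shares were 19.4%, 4.19% and 9.47%, and for the NRF1 core 11.9%, 4.04% and 8.05%. For SP1 they were 49.3%, 35.9% and 68.2%, and for the E-box 7.46%, 7.24% and 11.0%. The median GC content of the 3 sets was 58.0%, 52.7% and 61.7%. A match is a run of letters and says nothing of binding.

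Other genes of the pathway were set beside the family. Over all genes the shares past the limits of 25% up or 20% down were 9.35% above and 12% below at 1 h, and 6.09% and 11.0% at 6 h. Of 8 genes listed as ribosomal proteins under other names, Lactb among them, 1 was past the limit at 1 h and 0 were at 6 h. The 1 was Gadd45gip1, a large subunit protein, at 25.7, 19.3 and 22.3 FPKM. Chchd1, a small subunit protein and the highest of them, stood at 67.8, 67.6 and 69.6 FPKM. Of 16 expressed genes listed with the mitochondrial translation factors, not all of them factors, 3 were above and 1 below the limits at 1 h. At 6 h the counts were 1 and 0. The counts above the limit include Mtif3 at both times. Slirp, which stabilises mitochondrial messenger RNA, was the highest at 160.2, 165 and 135 FPKM. Tufm, the mitochondrial elongation factor Tu, stood at 54.2, 48.8 and 51.6 FPKM. Mtif3, an initiation factor, was listed at 0 for the control library, beside 1.89 and 2.18 FPKM after washout, so that it adds to the counts through an exact 0. Without it 2 of the listed genes were above at 1 h and 0 at 6 h.

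Of 22 expressed genes for assembly and rRNA modification 2 were above and 6 below the limits at 1 h, with a median of -0.12. Over all genes 9.35% lay above and 12% below the limits at 1 h. At 6 h the counts were 0 and 2, with a median of -0.035. Rnmtl1, a methyltransferase gene for mitochondrial rRNA, stood at 16.5, 9.87 and 12.5 FPKM, a ratio of 0.598 (0.498 to 0.718) at 1 h. Rpusd4, a pseudouridine synthase gene, stood at 9.98, 5.86 and 10.6 FPKM, low at 1 h alone, with a ratio of 0.588 (0.476 to 0.726). Ybey, an endoribonuclease gene, was listed at 0 at 1 h, beside 2.23 FPKM in the control and 2.35 FPKM at 6 h, and without it 5 genes were below at 1 h.

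Of 15 expressed regulators of mitochondrial DNA expression and biogenesis 1 was above and 2 were below the limits at 1 h. At 6 h 3 were above, Tfam, Tfb2m and Esrra, and 0 below. The shares past the limits over all genes were 9.35% above and 12% below at 1 h, and 6.09% and 11.0% at 6 h, and the counts at 1 h are near them. Tfam, which packages mitochondrial DNA and starts its transcription, stood at 15.7, 14.7 and 23.0 FPKM, a ratio of 1.47 (1.34 to 1.61) at 6 h. Tfb2m, which works with it, stood at 12.8, 13.9 and 17.0 FPKM, and the nuclear receptor gene Esrra at 17.0, 19.5 and 22.7 FPKM. Among genes for factors whose motifs were searched, Yy1 stood at 33.1, 26.2 and 32.0 FPKM, Nrf1 at 15.4, 15.3 and 14.9 FPKM and the ETS factor gene Gabpa at 15.8, 17.8 and 16.8 FPKM. Of 17 synthetase genes for mitochondrial transfer RNAs 3 were above and 1 below the limits at 1 h, and 1 and 1 at 6 h, the latter also near the shares of all genes. Lars2 was the highest of them at 108, 187 and 202 FPKM, with ratios of 1.73 (1.67 to 1.79) and 1.87 (1.81 to 1.93), and Pars2 stood at 3.59, 2.06 and 2.89 FPKM.

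Cytosolic ribosomal protein genes and respiratory genes are the sets nearest in function, and with single libraries their difference from the family was not tested. Of 76 expressed cytosolic genes 74 lay below the control at 1 h, with a median of -0.13 and quartiles of -0.16 and -0.10. The 2 exceptions, Rpl26 and Rps27, are listed at 0 in the control. The mitochondrial family had quartiles of -0.13 and 0.021. At 6 h the cytosolic median was -0.0087. From 1 h to 6 h 75 of the cytosolic genes lay higher, with a median of 0.11. Beside them 40 of 76 mitochondrial ones and 4727 of all 10464 genes did. The cytosolic exception was Rps27, listed at 0 at 6 h. Of 74 expressed respiratory genes 59 lay below the control at 1 h, with a median of -0.069, and 55 at 6 h, with a median of -0.063. From 1 h to 6 h 44 of them lay higher, with a median of 0.018. In the mitochondrial family 54 and 44 of 76 lay below the control at 1 h and 6 h, and over all genes 5700 and 6474 of 10464.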

How the data were processed

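RNA of 3 libraries was enriched with polyT and barcoded for Illumina sequencing, per the labels' protocols. The deposited FPKM values and 95% bounds come from the authors, whose processing notes name FastQC, TopHat, Cufflinks and the mm9 build. Versions, settings, annotation and strand were not given in the sources used here. The series table holds FPKM equal to that of the sample tables.

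Rows of a symbol were summed. Differences are of log2(FPKM + 1), which understates those of low genes, over symbols with a mean of at least 1 FPKM. Intervals combine the half-widths of both libraries' bounds, each relative to their middle. Depth was estimated by reading half-widths as 1.96 SD of a Poisson count. The members and lists were chosen with earlier results of these data known. Genes named were the 6 highest and 6 lowest means, the 5 highest and 5 lowest differences of each comparison, genes past 1.5-fold, the structural and disease groups, and in other lists genes past 1.5-fold and the highest mean. Mrpl38, Mrpl46, Mrps11, Slc5a3, Zfp189, Rpl30, Gadd45gip1, Tufm, Tfam, Tfb2m, Esrra, Nrf1 and Gabpa were named after their values were seen. Locus coordinates are mm9, 1-based, and promoters are GRCm38.p6, without conversion. Counting was tested on simulated data. Python 3.11.15, pandas 2.3.3, numpy 2.4.6, scipy 1.17.1 and matplotlib 3.10.9 were used. Alternatives changed the pseudocount, filter, scaling, source table, row choice, status filter, fold limit and interval. Counts without genes listed at 0 were added after seeing the data.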

Additional observations from a re-analysis of the deposited data

Results flagged for a closer look

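Mrpl44 and Mrps30 had log2 differences of opposite sign at the 2 times. Mrpl44 had a log2 difference from the control of -0.47 at 1 h and 0.10 at 6 h. Mrps30 had -0.36 at 1 h and 0.028 at 6 h. At 6 h the ratios to the control were 1.07 (0.908 to 1.27) and 1.02 (0.885 to 1.18), with intervals that include 1, so neither gene can be set apart from the control then. In both genes the deposited bounds at 1 h and 6 h were apart. With 1 library per group the difference between the times was not tested, and both values use the same control.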

How the results depend on the processing

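No paired analysis was possible because each group has 1 library. At a median ratio of 1, the family median at 6 h against the control was 0.032 in place of -0.029, and that at 6 h against 1 h was 0.037 in place of 0.0027. With a common upper quartile the former was 0.0058. The first rescaling moved the median of all genes at 6 h against the control from -0.057 to 0. Counts past 25% up or 20% down are small. Under either rescaling 1 gene was above at 1 h in place of 0, and 1 was below at 6 h in place of 2. At a median ratio of 1, 2 were above at 6 h in place of 1, and 0 were below at 6 h against 1 h in place of 1. With a pseudocount of 5 FPKM 0 were above and 1 below at 6 h. At 1.5-fold on the log2(FPKM + 1) scale the counts were 0 apart from 1 gene below at 6 h, and at 2-fold all were 0. Mrpl44, with an FPKM ratio of 1.52 at 6 h against 1 h, fell short of 1.5-fold through the added 1. Intervals excluded 1 for 18, 16 and 15 genes in the 3 comparisons. Bounds were apart, a rule added after seeing the data, for 8, 5 and 9, and widths relative to FPKM gave 25, 21 and 25. Causes of these changes were not tested. A mean of at least 5 FPKM left out Mrpl35. No named gene past 25% up or 20% down changed sign in any alternative. With a median half-width of 0.19 in log2 at 1 h, smaller differences of a typical gene were not detectable.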
